A study of Bubalus bubalis with 12 samples.

Results

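The genes described here are the 9 that carry the NRF2 antioxidant response: the transcription factor NFE2L2 (NRF2), its inhibitor KEAP1, and the target genes GCLC, GCLM, GSR, SRXN1, TXNRD1, NQO1 and HMOX1. They were taken by symbol from a table of 34037 genes, and each symbol had 1 row. The tissue was frozen ruminal wall of 12 adult, multiparous Italian Mediterranean dairy buffaloes (Bubalus bubalis) from a commercial herd, killed at the end of a feeding trial. The 6 control animals ate a total mixed ration (TMR), and the 6 treated animals ate a TMR in which green feed, fresh ryegrass, made up 30% of the diet. Both rations were formulated to be equal in energy and protein, but other components differed as well. The paper lists less corn silage and alfalfa hay, and no soybean meal or added vitamins, for the treated ration. Its share of forage relative to concentrates was higher. There was 1 total RNA library per animal, without pooling. The question was whether transcripts of the ruminal wall differ with green feed, and here it is asked of the antioxidant genes.

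NRF2 is a transcription factor that is made and destroyed continuously. In resting cells KEAP1, an adaptor of a ubiquitin ligase, holds NRF2 and marks it for the proteasome. When oxidants or electrophiles modify cysteines of KEAP1, NRF2 escapes, enters the nucleus, pairs with a small MAF protein and binds antioxidant response elements in front of genes for glutathione synthesis, thioredoxin reduction, quinone reduction and heme breakdown. Control of NRF2 is thus largely at the level of the protein, which RNA sequencing does not measure. The ruminal wall faces the products of microbial fermentation across a keratinized, layered squamous epithelium.

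Levels are given as FPKM, fragments scaled by gene length and by the fragments counted in the animal, so that genes of different length can be compared. Between 10531541 and 12948372 fragments were counted per animal. All 9 genes had reads in all 12 animals and passed the filter of at least 40 reads in at least 1 animal, which left 12769 genes for testing. HMOX1 reached that limit in 1 animal alone, control replicate 2, with 40 reads. The tissue label names the ruminal wall and no layer of it. For its epithelium, 12 markers of squamous epithelium were looked up, of which 10 were in the table and all 10 were tested. Their summed level was 3500 to 5470 FPKM in the control group and 3600 to 6290 FPKM in the treated group. Smooth muscle markers summed to 28.9 to 51.2 FPKM in the control group and 15.5 to 40.7 FPKM in the treated group.

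2 libraries stood apart from the others, 1 in each group. In control replicate 6 and treated replicate 6, 2456 of the 12769 genes (19.2%) were lower in both than in any of the other 10 animals, and 1098 (8.6%) were higher in both. Over the 66 pairs of animals the median of such genes was 318, and the pair with the next most had 1193. The basal keratin KRT5 was 451 and 498 FPKM in these 2 animals and 1180 to 2370 FPKM in the other 10. Correlations, ratios and the fold changes that moved most without these 2 animals are given both ways.

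The 9 genes spanned more than 2 orders of magnitude in level. GSR, glutathione reductase, which returns oxidized glutathione to its reduced form, was the most abundant, with a higher mean FPKM than 97.9% of the genes tested. GCLM, the modifier subunit of glutamate-cysteine ligase, was next and lay 3.94-fold below GSR. NFE2L2 lay 1.45-fold below GCLM. TXNRD1, the cytosolic thioredoxin reductase, lay 1.10-fold below NFE2L2, a step found in 7 of 12 animals (adjusted p = 0.39, exact sign-flip permutation test, two-sided), so these 2 genes did not differ beyond their spread.

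The lower part of the order began with NQO1, a quinone reductase, 1.96-fold below TXNRD1, followed by KEAP1 1.51-fold below NQO1. Next came GCLC, the catalytic subunit of glutamate-cysteine ligase, and SRXN1, the sulfiredoxin that repairs over-oxidized peroxiredoxins. Neither step passed: KEAP1 over GCLC was 1.23-fold (adjusted p = 0.103, exact) and GCLC over SRXN1 was 1.26-fold (adjusted p = 0.0671, exact). KEAP1 and SRXN1 are not neighbours in the order and were not tested against each other. Their means over the 12 animals were 13.7 and 8.82 FPKM. HMOX1, heme oxygenase 1, was last, 7.48-fold below SRXN1, and its mean exceeded that of 12.2% of the genes tested. Of the 8 steps, 5 passed with p-values adjusted over the 8, and the steps from GSR to GCLM, from TXNRD1 to NQO1 and from SRXN1 to HMOX1 held in 12 of 12 animals (p = 0.000488 each, exact, the smallest that 12 animals allow).

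The diets did not separate any of the 9 genes. In limma, none had an adjusted p below 0.05, where 0 of the 12769 genes tested (0%) did, and none had a nominal p (unadjusted) below 0.05, where 163 genes did (1.28%). The 2 groups overlapped for every one of the 9, against 7 genes of all tested whose groups did not overlap (0.0548%). The group mean was lower in treated animals for 7 genes and higher for KEAP1 and GCLM. Among the 7, HMOX1 had passed the filter through 1 control animal alone. The median log2 fold change (treated minus control, on log2(FPKM + 0.01)) was -0.03 for the 9 and 0.005 for all genes tested. The adjusted p was 0.9996 for each of the 9 after Benjamini-Hochberg adjustment across the 12769 genes.

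**Figure D1:**
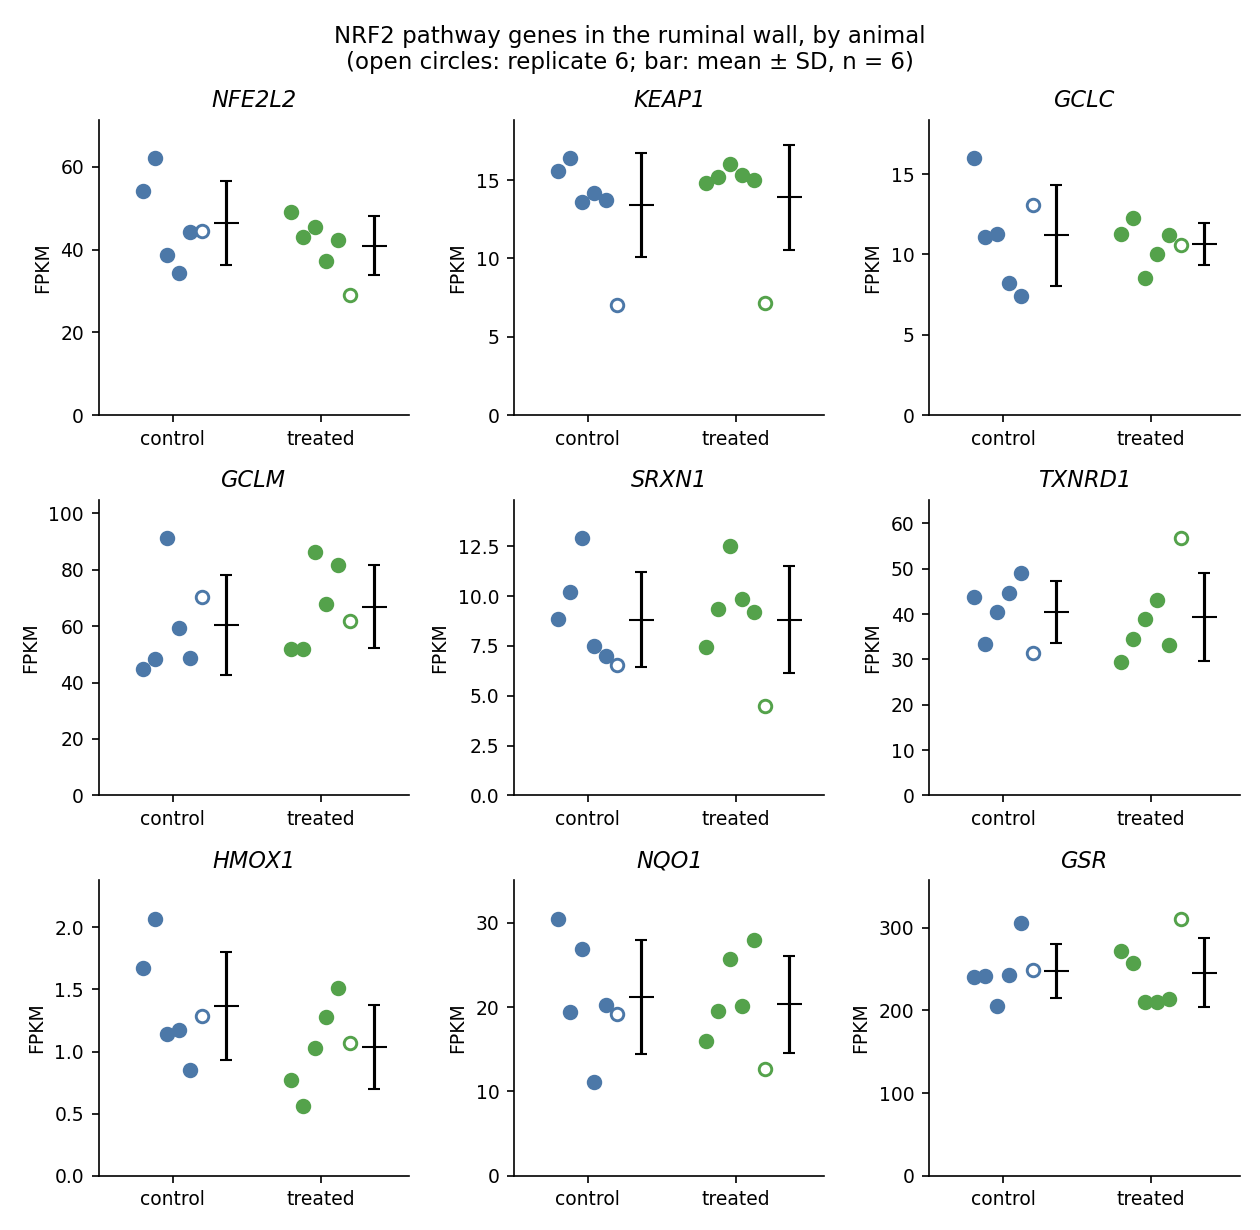
FPKM of the 9 NRF2 pathway genes in each animal, with 1 panel per gene and a linear axis from 0. Circles are single animals (control in blue, treated in green, replicate 6 of each group as an open circle), and the bar beside each group is the mean ± SD (n = 6). The groups overlap in every panel, and KEAP1 shows 1 low animal in each group, at 7.01 and 7.13 FPKM.

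The regulator and its inhibitor came first. NFE2L2 ranged from 34.4 to 62.1 FPKM in control animals (median 44.4) and from 28.9 to 49.0 FPKM in treated animals (median 42.7). The control group held the highest animals, replicates 1 and 2, and the lowest animal of all was treated replicate 6. Its mean was 46.4 ± 10.2 FPKM in the control group and 41.0 ± 7.06 FPKM in the treated group (SD, n = 6 each). The log2 fold change was -0.17 (SE 0.16, exact permutation p = 0.34, two-sided over all assignments of the animals to 2 groups of 6, as for the single genes that follow). The 95% interval of the fold runs from -30.0% to 12.9%, so a fall of that size in NFE2L2 RNA was not distinguishable from no change with 12 animals. Without both replicates 6 the log2 fold change was -0.08.

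KEAP1 was the most even of the 9 in 10 of the animals. It lay between 13.6 and 16.4 FPKM in 10 animals, with control replicates 1 and 2 and treated replicate 3 at the upper end. In control replicate 6 it was 7.01 FPKM, and in treated replicate 6 it was 7.13 FPKM, together 0.472 of the mean of the other 10. The medians were 14.0 FPKM in the control and 15.1 FPKM in the treated group. The log2 fold change was 0.05 (SE 0.24, exact permutation p = 0.617, 95% interval -27.0% to 47.0%). Without both replicates 6 it was 0.06, with an SE of 0.08, so that most of the spread of KEAP1 within the groups came from these 2 animals. They are also the 2 with the lowest summed squamous epithelium markers, at 3500 and 3600 FPKM against 4200 to 6290 FPKM in the other 10, and 4 of the 10 epithelial markers were lower and 1 was higher in both than in any other animal, where 19.2% of all genes tested were lower and 8.6% higher. Their summed macrophage and monocyte markers were the highest, at 45.6 and 48.8 FPKM against 26.3 to 45.1 FPKM in the other 10. Of the 7 such markers in the table, 0 were higher in both these animals than in any other. By mean log2 level of these markers control replicate 3 was highest, at 1.08, against 1.06 in control replicate 6 and 0.85 in treated replicate 6. Beyond the correlations with marker scores and the fits with such scores as covariates, given below, the part of these cell types in the KEAP1 values was not tested. In a bulk sample, fewer cells of a type and less RNA per cell cannot be told apart.

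The ratio of KEAP1 to NFE2L2 was computed within each animal. It was 0.297 ± 0.0857 in control and 0.336 ± 0.0556 in treated animals (SD, n = 6 each). The groups overlapped, with a mean log2 difference of 0.22 (exact permutation p = 0.403, two-sided). The lowest ratio of all, 0.158, was that of control replicate 6. The difference was 0.05 without control replicate 6 and 0.14 without both replicates 6.

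**Figure D2:**
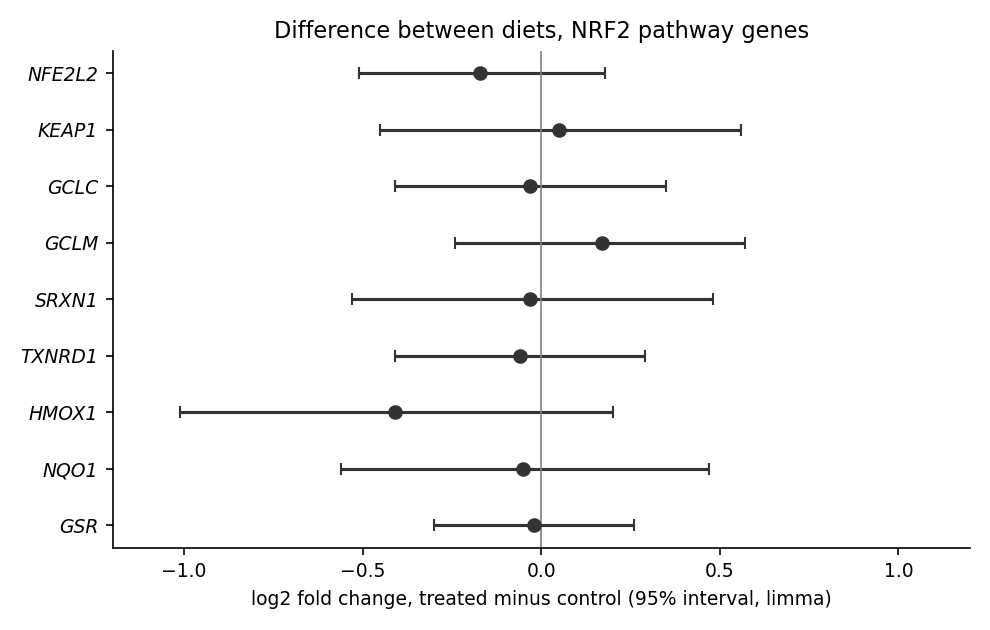
Log2 fold change of each of the 9 genes, treated minus control, with its 95% interval from limma (12 animals). All 9 intervals include 0; the widest is that of HMOX1, from -1.01 to 0.20, and the narrowest that of GSR, from -0.30 to 0.26.

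Of the glutathione genes, the 2 subunits of glutamate-cysteine ligase, the enzyme that catalyses the rate-limiting step of glutathione synthesis, had unequal levels. GCLC ranged from 7.42 to 16.0 FPKM (median 11.2) in control animals and from 8.51 to 12.3 FPKM (median 10.9) in treated animals. The treated animals all fell within the control range, and the control group held both the highest animal, replicate 1, and the lowest, replicate 5. The mean was 11.2 ± 3.16 FPKM against 10.7 ± 1.29 FPKM (SD, n = 6 each), and the log2 fold change was -0.03 (SE 0.18, exact permutation p = 0.857).

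GCLM was about as variable but stood several-fold higher. It ranged from 44.9 to 91.1 FPKM (median 54.1) in control animals and from 51.9 to 86.3 FPKM (median 64.9) in treated animals. The 3 highest animals were control replicate 3 and treated replicates 3 and 5, so both groups reached the same height. The mean was 60.4 ± 17.7 FPKM against 66.9 ± 14.6 FPKM (SD, n = 6 each), and the log2 fold change of 0.17 (SE 0.19, exact permutation p = 0.416, 95% interval -15.3% to 48.5%) was the highest of the 9. When the mean level of smooth muscle and fibroblast markers entered the model as a covariate, it became 0.42 (SE 0.19) with a nominal limma p of 0.0435, and its adjusted p was 0.9993.

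The GCLC to GCLM ratio was 0.198 ± 0.0868 in control and 0.168 ± 0.0514 in treated animals (SD, n = 6 each; mean log2 difference -0.20, exact permutation p = 0.528, two-sided). The difference was -0.01 without control replicate 1, -0.05 without treated replicate 3 and -0.21 without both replicates 6. The highest ratio, 0.357 in control replicate 1, was that of the animal with the most GCLC and the least GCLM. Across the 12 animals the levels of the 2 subunits had a Pearson r of -0.17 (permutation p = 0.59, adjusted p = 0.787) and a Spearman rho of -0.06 (permutation p = 0.852). Without both replicates 6 the Pearson r was -0.24.

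GSR was the steadiest of the 9 over all 12 animals, with a 1.52-fold span. It ranged from 205 to 306 FPKM (median 243) in control animals and from 210 to 311 FPKM (median 235) in treated animals. In both groups 1 animal stood above the rest, control replicate 5 and treated replicate 6. The mean was 248 ± 32.6 FPKM against 246 ± 41.7 FPKM (SD, n = 6 each). The log2 fold change was -0.02 (SE 0.13, exact permutation p = 0.857), and its 95% interval, -18.6% to 19.7%, was the narrowest bound on a diet difference in the set.

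SRXN1 and TXNRD1 belong to the thioredoxin and peroxiredoxin arm, in which peroxiredoxins reduce peroxides at the expense of thioredoxin. SRXN1 ranged from 6.55 to 12.9 FPKM (median 8.17) in control animals and from 4.48 to 12.5 FPKM (median 9.29) in treated animals. Replicate 3 was the highest and replicate 6 the lowest animal in each group. The means were 8.83 ± 2.41 and 8.82 ± 2.69 FPKM (SD, n = 6 each), and the log2 fold change was -0.03 (SE 0.24, exact permutation p = 0.922). The direction of this small difference was not stable: without both replicates 6 it was 0.08.

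TXNRD1 ranged from 31.4 to 49.0 FPKM (median 42.1) in control animals and from 29.5 to 56.7 FPKM (median 36.7) in treated animals. The 2 replicates 6 lay at opposite ends, since control replicate 6 was the lowest control and treated replicate 6 the highest animal of all. The mean was 40.4 ± 6.84 FPKM against 39.3 ± 9.76 FPKM (SD, n = 6 each), and the log2 fold change was -0.06 (SE 0.16, exact permutation p = 0.742). Without both replicates 6 it was -0.24 with an SE of 0.13, and it did not reach a nominal p below 0.05. TXNRD1 relative to GSR, the reductase of the glutathione arm, was 0.164 ± 0.0283 in control and 0.162 ± 0.0362 in treated animals, with overlapping groups (mean log2 difference -0.04, exact permutation p = 0.835, two-sided; -0.15 without both replicates 6).

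NQO1, which reduces quinones without a radical intermediate and is widely read as a marker of NRF2 activity, ranged from 11.1 to 30.5 FPKM (median 19.9) in control animals and from 12.7 to 28.0 FPKM (median 19.8) in treated animals. The 2 medians were nearly equal, and the lowest and the highest animal were both controls, replicates 4 and 1. The mean was 21.3 ± 6.78 FPKM against 20.3 ± 5.72 FPKM (SD, n = 6 each), and the log2 fold change was -0.05 (SE 0.24, exact permutation p = 0.84).

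HMOX1, which opens the heme ring and releases iron and carbon monoxide, was counted with only 11 to 40 reads per animal. Only control replicate 2, with 40 reads, took it past the filter, so the filter favoured a higher level in control than in treated animals. It ranged from 0.855 to 2.07 FPKM (median 1.23) in control animals and from 0.563 to 1.51 FPKM (median 1.05) in treated animals. The 2 highest animals were control replicates 2 and 1, and the 2 lowest were treated replicates 2 and 1. The mean was 1.36 ± 0.435 FPKM against 1.04 ± 0.339 FPKM (SD, n = 6 each), and its log2 fold change of -0.41 (SE 0.28, exact permutation p = 0.169) was the furthest from 0 of the set. It was -0.21 with a pseudocount of 1, -0.23 as the difference of medians, -0.25 without treated replicate 2 and -0.10 with the smooth muscle and fibroblast score, under which GCLM at 0.42 was furthest from 0. Counting error alone gives an SD of 0.314 on the log2 scale at this depth, against 0.476 within the groups, so HMOX1 is the one member for which reads limited the precision. For GSR the same values were 0.0173 and 0.213. Intervals here cover the spread between animals, and values from reads cover counting error only.

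Spread between animals, and not depth, set what could be seen for the other 8 genes. The median SD within the groups was 0.355 on the log2 scale for the 9 and 0.361 for all genes tested, so the antioxidant genes were about as variable as the transcriptome around them. The highest animal exceeded the lowest by 3.68-fold for HMOX1, 2.89-fold for SRXN1 and 2.75-fold for NQO1. The span was 1.93-fold for TXNRD1 and between 2.03-fold and 2.34-fold for GCLM, NFE2L2, GCLC and KEAP1.

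**Figure D3:**
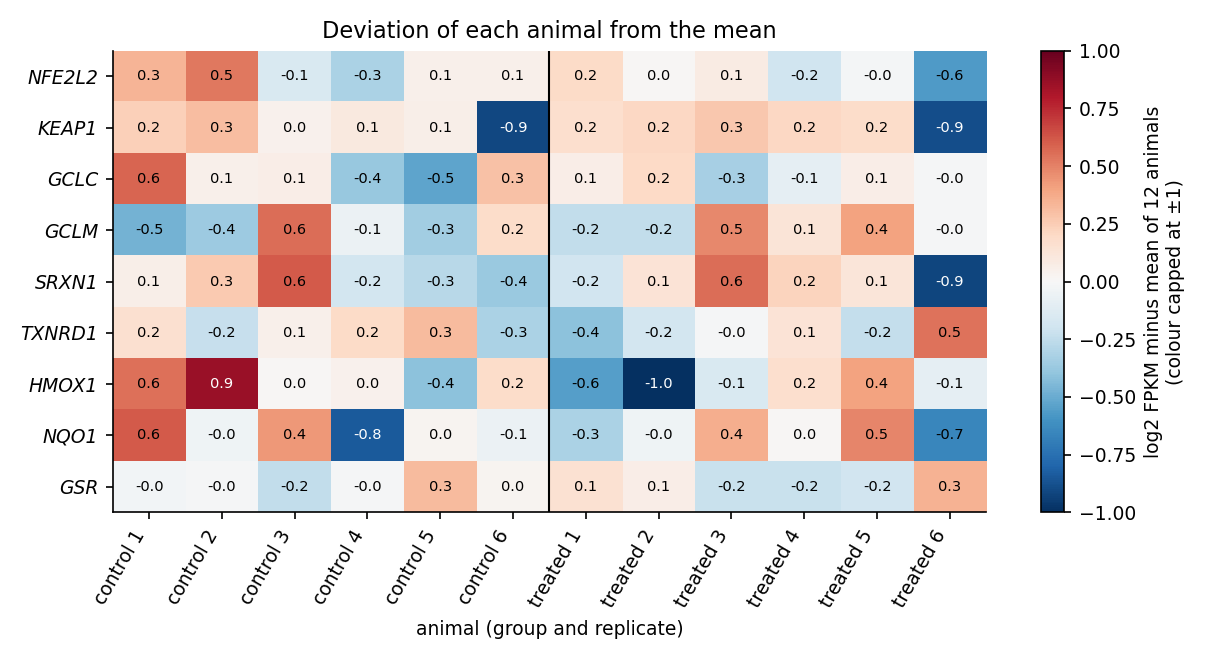
Difference of log2 FPKM from the mean of the 12 animals (colour and number), with genes in rows and animals in columns; the vertical line separates control (left) from treated (right). No column is high or low for all 9 genes: treated replicate 6 is low for KEAP1, SRXN1, NQO1 and NFE2L2 and high for TXNRD1 and GSR.

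The 9 genes did not move as 1 block from animal to animal. Treated replicate 6 had the least NFE2L2 and SRXN1 of all animals and the most TXNRD1 and GSR. Control replicate 6 had the least KEAP1 and was near the top for GCLC, where it ranked 11 of 12 from the lowest. Control replicate 1 had the most GCLC and NQO1 and the least GCLM. Control replicate 3 had the most GCLM and SRXN1 and the least GSR.

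Of the 36 pairs among the 9 genes, SRXN1 and GSR alone passed with p-values adjusted over the 36, and their relation was inverse. Animals with more SRXN1 had less GSR (Pearson r = -0.84, permutation p = 0.00059, adjusted p = 0.0212; Spearman rho = -0.84, permutation p = 0.00116, adjusted p = 0.0418; n = 12, log2 FPKM). The relation had the same sign in each group, with r = -0.76 in control and r = -0.89 in treated animals (n = 6 each). Without the 2 animals farthest from the median of SRXN1 it was r = -0.71 (n = 10, permutation p = 0.0211), and without both replicates 6 it was r = -0.81 (n = 10, permutation p = 0.00414). With 10 animals neither passed adjustment over the 36 pairs (adjusted p = 0.753 and 0.129, permutation), and with median-ratio scaling of the 12 animals r was -0.81 and the pair no longer passed either, so the call rests on all 12 animals and on the deposited scale. With the score of squamous epithelium markers removed by regression over the 12 animals r was -0.89. With that score SRXN1 had r = 0.47 and GSR r = -0.13 over the 12. Without both replicates 6 these were -0.54 (permutation p = 0.107, adjusted p = 0.402) and 0.68 (permutation p = 0.0315, adjusted p = 0.378). The part of the epithelium in the relation was not tested in those 10 animals. The SRXN1 and GSR levels of an animal come from the same library and share its depth. The permutation takes the 12 animals as independent, and the correlations were not run with the replicate number as a block.

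**Figure D4:**
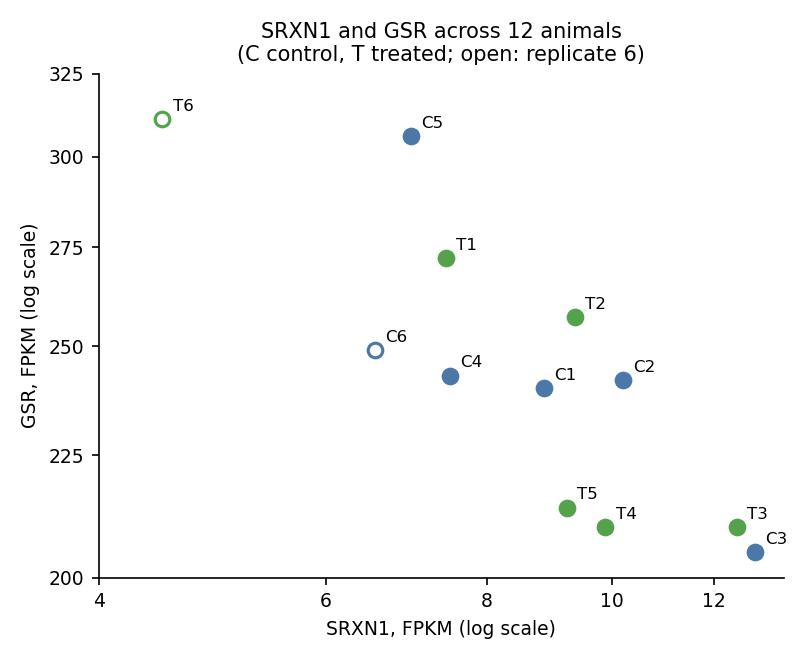
GSR against SRXN1 in the 12 animals, both in FPKM on log axes; C and T mark control and treated replicates, and open circles are replicate 6. GSR falls from 311 FPKM at the lowest SRXN1 (4.48 FPKM, T6) to 205 FPKM at the highest (12.9 FPKM, C3), with an r of -0.84 over the 12 animals, -0.76 in control and -0.89 in treated animals.

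The other pairs did not pass adjustment. GCLM and GSR were also inverse (r = -0.64, permutation p = 0.0269, adjusted p = 0.242; rho = -0.53, permutation p = 0.0799; n = 12; r = -0.43 without the 2 animals farthest from the median of GCLM and -0.79 without both replicates 6). So were NFE2L2 and TXNRD1 (r = -0.60, permutation p = 0.0376, adjusted p = 0.271; rho = -0.52, permutation p = 0.087; n = 12), with r = -0.28 without the 2 farthest animals and -0.40 without both replicates 6. SRXN1 and NQO1 ran together (r = 0.66, permutation p = 0.0192, adjusted p = 0.23; rho = 0.51, permutation p = 0.0942; n = 12), with r = 0.47 without the 2 animals farthest from the median and 0.56 without both replicates 6. For KEAP1 the 2 replicates 6 form a cluster of their own, so a coefficient over 12 animals joins 2 clusters. KEAP1 and SRXN1 had r = 0.73 over the 12 (permutation p = 0.00393, adjusted p = 0.0707; rho = 0.62, permutation p = 0.0343) and r = 0.28 in the other 10 (permutation p = 0.424, adjusted p = 0.746), so the relation rests on these 2 animals.

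The wider pathway was counted in the same way. In 7 lists of other genes of the NRF2 pathway and its chemistry, 94 genes were named, 90 were in the table and 80 were tested. None had an adjusted p below 0.05. At a nominal p below 0.05 there was 1 gene higher in treated animals, where 0.799% of all genes tested were, and 1 gene lower, where 0.478% were; together they are 2.5% of the 80, against 1.28% of all genes. The log2 fold change was above 0 for 38 and below 0 for 42 of the 80, with a median of -0.01.

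The gene that was higher was GSS, glutathione synthetase, which adds glycine in the last step of glutathione synthesis. It ranged from 38.0 to 51.5 FPKM (median 45.4) in control animals and from 46.4 to 57.0 FPKM (median 52.4) in treated animals. The groups overlapped between 46.4 and 51.5 FPKM. The mean was 45.3 ± 4.42 FPKM against 52.6 ± 3.93 FPKM (SD, n = 6 each), and the log2 fold change was 0.22 (SE 0.10) with a nominal limma p of 0.039 and an exact permutation p of 0.0173 (two-sided), neither adjusted.

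The gene that was lower was PRDX4, the peroxiredoxin of the endoplasmic reticulum. It ranged from 54.8 to 70.5 FPKM (median 64.6) in control animals and from 42.8 to 72.3 FPKM (median 50.5) in treated animals, where the highest animal exceeded all controls. The mean was 64.1 ± 5.97 FPKM against 53.2 ± 11.1 FPKM (SD, n = 6 each), and the log2 fold change was -0.29 (SE 0.13) with a nominal limma p of 0.0462 and an exact permutation p of 0.0563 (two-sided), neither adjusted.

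**Figure D5:**
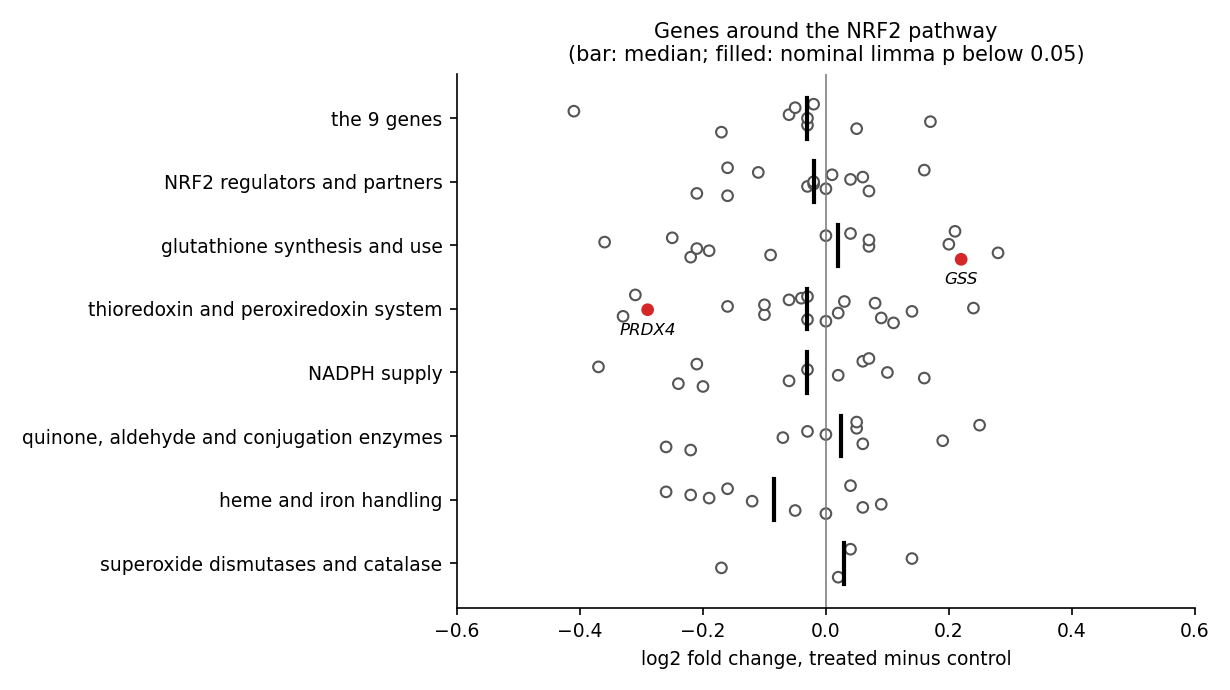
Log2 fold change, treated minus control, of each gene tested in the set of 9 and in the 7 lists around it; the bar is the median of a list and filled points have a nominal limma p below 0.05. Medians lie between -0.09 and 0.03, and the 2 filled points are GSS at 0.22 and PRDX4 at -0.29.

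Of the 13 regulators and partners of NRF2 tested, 6 had a log2 fold change above 0 and 7 below, and none passed. SQSTM1, the autophagy receptor that can sequester KEAP1, was the most abundant, at 98.7 ± 15.0 FPKM in control and 103 ± 11.6 FPKM in the treated group (SD, n = 6 each; log2 fold change 0.06). NFE2L3, a related transcription factor, had the log2 fold change furthest from 0 in the list, -0.21 (SE 0.24, exact permutation p = 0.431).

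Of the 14 genes of glutathione synthesis and use tested, 7 were above 0 and 7 below, and GSS alone had a nominal p below 0.05. GPX1, the cytosolic glutathione peroxidase, was the most abundant, at 668 ± 188 FPKM in control and 740 ± 86.9 FPKM in the treated group (SD, n = 6 each; log2 fold change 0.20, exact permutation p = 0.463). GPX3, the secreted form, had the log2 fold change furthest from 0, -0.36 (SE 0.44, exact permutation p = 0.563), at 2.40 against 2.00 FPKM.

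Of the 18 genes of the thioredoxin and peroxiredoxin system, 8 were above 0 and 10 below, with PRDX4 the one at a nominal p below 0.05. PRDX6, a peroxiredoxin that uses glutathione, had the highest level met in these lists, 4370 ± 958 FPKM in control and 3840 ± 457 FPKM in the treated group (SD, n = 6 each; log2 fold change -0.16, exact permutation p = 0.329). TXNIP, which binds and inhibits thioredoxin, was 140 ± 41.9 against 110 ± 30.4 FPKM (SD, n = 6 each; log2 fold change -0.33, exact permutation p = 0.225).

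Of the 11 genes that supply NADPH, 5 were above 0 and 6 below, and none passed. The cytosolic isocitrate dehydrogenase IDH1 was the most abundant, at 340 FPKM in control and 339 FPKM in treated animals, with a log2 fold change of -0.03. Its mitochondrial counterpart IDH2 had the log2 fold change furthest from 0, -0.37 (SE 0.28, exact permutation p = 0.275), at 31.9 against 24.6 FPKM.

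Of the 10 quinone, aldehyde and conjugation enzymes tested, 6 were above 0 and 4 below, and none passed. ALDH1A1, a retinaldehyde dehydrogenase, led in level at 474 FPKM in control and 478 FPKM in treated animals. The epoxide hydrolase EPHX1 was furthest from 0, with a log2 fold change of -0.26 (SE 0.28, exact permutation p = 0.431).

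Of the 10 genes of heme and iron handling tested, 3 were above 0 and 7 below, with a median of -0.09, and none passed. The ferritin heavy chain FTH1 was 683 ± 131 FPKM in control and 631 ± 148 FPKM in the treated group (SD, n = 6 each; log2 fold change -0.12). TFRC, the transferrin receptor, had a log2 fold change of -0.26 (SE 0.14, exact permutation p = 0.0974), at 92.3 against 77.7 FPKM.

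Of the 4 superoxide dismutase and catalase genes tested, 3 were above 0 and 1 below, and none passed. SOD1, the cytosolic enzyme, was the most abundant, at 157 FPKM in control and 160 FPKM in treated animals. SOD2, the mitochondrial enzyme, was furthest from 0, with a log2 fold change of -0.17 (SE 0.17, exact permutation p = 0.381).

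No marker of the other layers of the wall passed with adjusted p-values. All 8 smooth muscle markers tested had a log2 fold change below 0 (median -0.75), 1 of them, DES, at a nominal limma p of 0.0271 (exact permutation p = 0.0519, two-sided). Of the 10 listed, ACTG2 and CNN1 did not pass the filter. They were 0.851 and 1.17 FPKM in control and 0.307 and 0.399 FPKM in treated animals (exact permutation p = 0.0238 each, two-sided, unadjusted). The summed level of smooth muscle markers was 28.9 to 51.2 FPKM in control and 15.5 to 40.7 FPKM in treated animals. All 9 fibroblast markers were below 0 (median -0.73, none at a nominal p below 0.05), with a summed level of 46.6 to 288 FPKM in control and 20.1 to 180 FPKM in treated animals. Of the 10 squamous epithelium markers, 6 were above 0 and 4 below, with a median of 0.05. Beyond marker scores as covariates and the correlations that follow, the part of these layers in the values of the 9 genes was not tested.

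Among the 36 pairs of a gene and the mean log2 level of the squamous epithelium, smooth muscle, fibroblast or macrophage and monocyte markers, none passed adjustment. HMOX1 ran with the smooth muscle markers (r = 0.74, permutation p = 0.00573, adjusted p = 0.103; rho = 0.69, permutation p = 0.0148; n = 12; r = 0.61 without the 2 animals farthest from the median and 0.78 without both replicates 6). NFE2L2 ran with the squamous markers (r = 0.66, permutation p = 0.0212, adjusted p = 0.254, rho = 0.64, permutation p = 0.0313, n = 12). Here r was 0.57 without the 2 animals farthest from the median of the squamous markers, which were both replicates 6. KEAP1 had r = 0.86 with the squamous markers over the 12 animals (permutation p = 0.00227, adjusted p = 0.0817; rho = 0.57, permutation p = 0.0551), the lowest p of the 36, and r = 0.37 in the 10 animals without both replicates 6 (permutation p = 0.29, adjusted p = 0.527), so this relation too rests on those 2. None of the 8 endothelium, 5 macrophage and monocyte and 3 lymphocyte markers tested had a nominal limma p below 0.05, with median log2 fold changes of -0.08, -0.03 and -0.13. Erythroid markers summed to between 0 and 0.722 FPKM in the 12 animals, with ALAS2, SLC4A1 and EPB42 listed at 0 in all of them.

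The gene most like each of the 9 across the 12 animals was sought among all other genes tested, by Pearson r of log2 level, as a description. For KEAP1 it was LAD1 (r = 0.991), which codes for an anchoring protein of the basement membrane; LAD1 was 14.1 and 15.5 FPKM in the 2 replicates 6 and 58.5 to 76.7 FPKM in the others, and r was 0.70 without them. For SRXN1 it was HSPD1, the mitochondrial chaperonin (r = 0.958, and 0.92 without both replicates 6). For NFE2L2 it was PDK2, a pyruvate dehydrogenase kinase (r = 0.941, and 0.94 without them). For the rest, the value without both replicates 6 is in brackets. The highest r was 0.899 (0.88) for NQO1 with LOC112586949, 0.898 (0.93) for GCLC with SGO1 and 0.882 (0.95) for GCLM with LOC102408872. It was 0.88 (0.89) for TXNRD1 with RALB, 0.868 (0.88) for HMOX1 with PALD1 and 0.841 (0.84) for GSR with GRHL1. Each r over the 12 animals is the highest of as many coefficients as there were other genes tested. No 2 of the 9 genes shared the same closest gene.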

How the data were processed

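RNA was measured in ruminal wall of 12 animals, 6 per diet, grouped by the sample labels. The authors trimmed reads with Trimmomatic 0.39, aligned them with STAR 2.5.2b to the UOA_WB_1 assembly and counted them per gene, by strand, with featureCounts 2.0.0, keeping reads of mapping quality 30 or more. The values deposited by the authors are FPKM per gene; the tool and gene lengths behind them are not given in the sources used here. The deposited table has 16 columns of FPKM, of which 4 match no sample label and were not used. The table has no coordinates, and genes are named by its symbols and NCBI gene identifiers.

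FPKM of a gene are spaced in steps of 1 read, and reads were worked out for all 22972 genes above 0 (tolerance 0.001) and used for depth and for the filter. The 12769 genes with at least 40 reads in at least 1 animal were tested with limma 3.58.1 in R 4.3.3 (eBayes with trend) on log2(FPKM + 0.01), and p-values were adjusted by Benjamini-Hochberg over these genes. Single values and ratios were tested by exact permutation over the 924 assignments of 12 animals (smallest p 0.00216), neighbours in the order of levels by exact sign flips within animals, and correlations by 100000 resamples, in Python 3.11.15 (scipy 1.17.1, numpy 2.4.6, pandas 2.3.3). Figures were drawn with matplotlib 3.10.9. The working out of reads, the limma fit and the exact tests were tried on simulated data. In these data the animals were independent, with no pattern shared by 2 of them.

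The 9 genes and all gene lists were chosen with earlier results of these data known. Beside the 9, the text names, in each pathway list, genes with a nominal limma p below 0.05, the most abundant gene and the one with the largest absolute log2 fold change, and for each of the 9 the gene with the highest Pearson r. KRT5, DES, ACTG2, CNN1 and the erythroid genes at 0 were named after their values were seen. Alternatives were pseudocounts of 0.1 and 1, other filters, median-ratio scaling, robust empirical Bayes, voom, an exact rank-sum test, the replicate number as a block, marker scores as covariates and each animal left out. Chosen after seeing the data were leaving out both replicates 6 and the squamous epithelium score as a covariate.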

Additional observations from a re-analysis of the deposited data

Results flagged for a closer look

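In 2 of the 18 groups checked (9 genes in 2 diets), 1 animal lay further from its group than Dixon's 95% critical value for 6 samples allows; chance gives about 1 in 20 such groups. Both concern KEAP1. The lowest control animal, replicate 6, had 7.01 FPKM, and the lowest treated animal, replicate 6, had 7.13 FPKM. The cause was not tested.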

How the results depend on the processing

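Under every setting run, no gene had an adjusted p below 0.05 in limma or the exact rank-sum test. The number of genes with a nominal p below 0.05 was 163 and became 562 for all genes above 0, 301 where 6 animals or more had 0.1 FPKM, 326 with the replicate block, 351 with the smooth muscle and fibroblast score, 281 with the squamous epithelium score, and 311 without both replicates 6. By voom it was 146 and by the exact rank-sum test 187. With 1 animal left out it was 145 to 328, the highest without treated replicate 6. Of the 9 genes, 0 had a nominal p below 0.05 except with the smooth muscle and fibroblast score, where it was 1 (GCLM).

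The small fold changes were not stable in sign. SRXN1 was 0.19 as the difference of medians. With the smooth muscle and fibroblast score KEAP1 was -0.06, GCLC 0.01, SRXN1 0.04, TXNRD1 0.04 and NQO1 0.16; with the squamous epithelium score KEAP1 was -0.0015; without both replicates 6 GCLC was 0.02, SRXN1 0.08 and NQO1 0.06. With 1 animal left out the log2 fold change was -0.14 to 0.08 for GCLC, -0.09 to 0.04 for GSR, -0.13 to 0.23 for KEAP1, -0.22 to 0.08 for NQO1, -0.14 to 0.15 for SRXN1 and -0.17 to 0.02 for TXNRD1, and the log2 difference of the TXNRD1 to GSR ratio was -0.11 to 0.07. It was -0.31 to -0.01 for the GCLC to GCLM ratio and 0.05 to 0.33 for the KEAP1 to NFE2L2 ratio. NFE2L2 (-0.25 to -0.07), GCLM (0.09 to 0.29) and HMOX1 (-0.53 to -0.25) kept their sign; HMOX1 has no value without control replicate 2, since it then fell below 40 reads. The cause was not tested.

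Of the 36 gene pairs, 1 passed adjustment with all animals and 0 did with median-ratio scaling, without the 2 animals farthest from the median, or without both replicates 6. Same-numbered animals of the 2 groups are different animals, and the numbers were not taken to pair them in the main results. The correlation of their deviations was -0.0146 to 0.409, above 0.1 in 4 of 6 pairs. Its mean was 0.209, against -0.0388 for animals with other numbers. In all, 3 of 6 controls and 4 of 6 treated animals correlated best with their own number. These values do not show that same-numbered animals are independent, as the correlations and the permutations over all animals take them to be. The cause of this likeness was not tested. With the replicate block the log2 fold changes of the 9 genes and the differences of the 3 ratios were the same. None of these gained or lost a call. The SE fell for KEAP1 (0.24 to 0.09), SRXN1 (0.24 to 0.14), GCLM (0.19 to 0.12) and NFE2L2 (0.16 to 0.13). It also fell for NQO1 (0.24 to 0.21), GCLC (0.18 to 0.16) and GSR (0.13 to 0.12). It rose for HMOX1 (0.28 to 0.34) and TXNRD1 (0.16 to 0.17). Beside the count over all genes given above, other results, the correlations among them, were not run with the block. The numbers in the column names differ from those of the labels, which were used.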
